A study of Mus musculus with 5 samples.

Results

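The 10 serotonin receptor genes Htr1a, Htr1b, Htr2a, Htr2c, Htr3a, Htr4, Htr5a, Htr5b, Htr6 and Htr7 were followed across 5 RNA-Seq libraries of mouse dentate gyrus (DG), the hippocampal region in which new granule neurons form throughout adult life. They were chosen by symbol and not by a rule on their values, but with earlier results of these data known. All 10 were found among the 23420 gene symbols of the data. All mice were wild-type, of the outbred CD1 strain and, per the methods of the study, male. The labels give their age as 4 months. The methods of the study give a younger age and do not say whether it was the age before or after the housing. LD mice lived alone with a locked disk for 4 weeks. CE (complex environment) mice lived in social groups with a locked disk and with tunnels that were moved daily, so CE differed from LD in company as well as in objects. RUN mice lived alone with a disk that turned. L-RUN and H-RUN were the low and the high runners among the RUN mice, ranked by their running distance. Each group was a single library of poly(A) RNA from the pooled DG of 8 mice (LD, CE and RUN) or 4 mice (L-RUN and H-RUN), and the 8 mice of the RUN pool were those of both runner pools.

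Serotonin reaches the DG from the raphe nuclei of the brainstem, and its receptors fall into families that act through different partners. The receptors encoded by Htr1a, Htr1b and Htr5a couple to Gi/o proteins, which lower cyclic AMP and can open inward rectifier potassium channels. Those of Htr2a and Htr2c couple to Gq and raise inositol phosphates and calcium, those of Htr4, Htr6 and Htr7 couple to Gs and raise cyclic AMP, and the product of Htr3a is a subunit of a cation channel that opens when serotonin binds. In the hippocampus these receptors are studied for their part in mood, in the action of antidepressants and in adult neurogenesis.

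The values are regularized log values (log2 scale), and a difference between groups is a difference between 2 such values, on which a difference of 1 would be a doubling. Regularized log values are shrunken toward a gene's mean, so differences of genes with few reads are understated. A gene was called expressed at a mean of at least 5 over the 5 libraries, as 13550 genes were, and called different at 0.3 or more in either direction. No group had a replicate library, so no test was possible, no difference has a replicate check, and each value is a comparison of pools and not of mice. The only gauge of error came from RUN, set against the value computed for equal parts of both runner pools. It gave a technical SD of a difference of 0.036 over all expressed genes and of 0.022 to 0.047 by decile of expression, which holds no differences between mice. The depth of the libraries is unknown. All 8 granule cell markers were expressed, with mean levels of 8.79 to 12.99 that include 11.83 for Prox1 and 12.99 for Calb1. Their summed level (log2) was 14.81 to 14.90. C1ql2 was called higher than LD in RUN (0.37), L-RUN (0.37) and H-RUN (0.40). In L-RUN Plk5 was also called higher (0.36) and Prox1 lower (-0.41). Prox1 was 0.32 higher in H-RUN than in L-RUN. In CE 0 of the 8 were called. The shares of expressed genes called were 1.31% in RUN, 3.13% in L-RUN, 0.827% in H-RUN and 1.54% in H-RUN minus L-RUN.

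Htr2c was the receptor gene that differed most between groups, highest in CE and lowest in H-RUN. Htr1a was lower than in LD in each of the other 4 libraries, by 0.15 to 0.29, and did not reach 0.3 in any. Htr2a was also lower in each, by 0.03 to 0.24. The other 7 genes stayed within 0.10 of LD in every library. 8 of the 10 genes were expressed, and Htr5b and Htr1b, with means of 4.79 and 2.92, were below the minimum.

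Counted over all 10 genes, 1 was called in CE (Htr2c, higher), where 0.598% of expressed genes were called and 0.332% were called higher. In RUN and in L-RUN 0 were called, against 1.31% and 3.13% of expressed genes. In H-RUN 1 was called (Htr2c, lower), against 0.827% in either direction and 0.472% lower. In H-RUN minus L-RUN 1 was called (Htr2c, lower), against 1.54% and 0.561% lower. In CE minus RUN, a comparison added after the data were seen, 1 was called (Htr2c, higher), against 0.834% and 0.539% higher. With a threshold of 0.2, Htr1a was also counted in RUN, where 4.66% of expressed genes passed, Htr1a and Htr2a in L-RUN (9.93%), and Htr1a beside Htr2c in H-RUN (3.31%). With 0.4, 0 of the 10 genes passed in H-RUN, against 0.28% of expressed genes. The median difference from LD of the 10 genes was 0.03 in CE, -0.02 in RUN, with -0.03 in H-RUN and -0.05 in L-RUN, and the medians of all expressed genes lay between -0.0035 and -0.0013. L-RUN was the lowest library for 7 of the 10 genes and CE the highest for 6, counted with Htr5b and Htr1b, which are below the minimum. The share of expressed genes with these extreme libraries was not computed. Over expressed genes the differences from LD had an SD of 0.132 in L-RUN, 0.101 in RUN, 0.095 in CE and 0.089 in H-RUN.

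Levels of different genes were compared only per length, as the regularized log value minus log2 of the length of all exons in kb. On this scale Htr1a stood highest, with a mean of 8.15 over the 5 libraries, above 63.5% of expressed genes. Htr4 followed at 6.70, Htr7 at 6.07, Htr5a and Htr3a at 5.94 and 5.94, Htr2c at 5.46, Htr6 at 4.79, Htr2a at 4.04, Htr5b at 3.84 and Htr1b at 0.68. The ranges over the 5 libraries overlapped between Htr5a and Htr3a and between Htr3a and Htr2c, so the spread over libraries did not separate these neighbours in the order. Within each library Htr3a still lay above Htr2c. The ranges of all other neighbours did not overlap. The place of Htr2c depended on its annotated length, since with its longest transcript (4883 bases) in place of all its exons (9328 bases) its level per length was 6.39 and it stood in place 3.

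**Figure D1:**
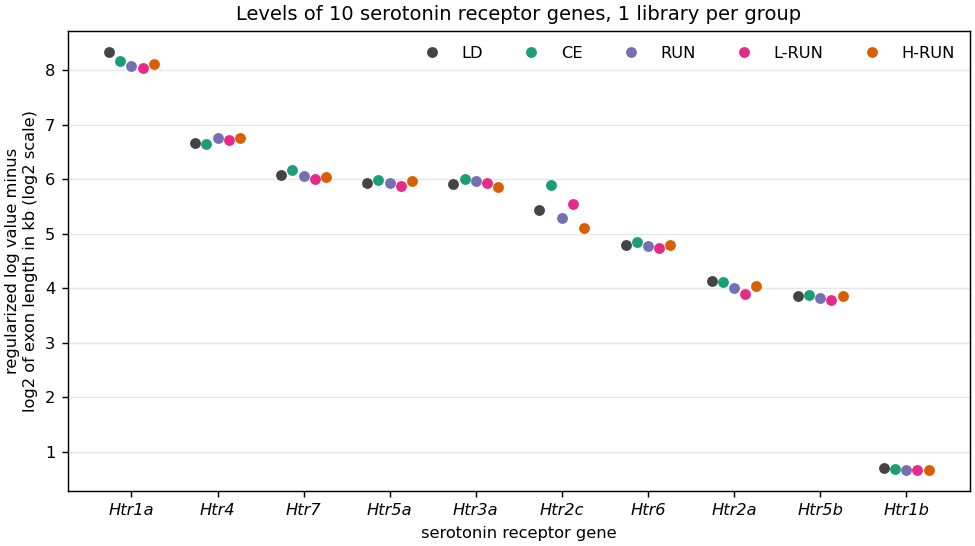
Level per length of the 10 serotonin receptor genes (regularized log value minus log2 of exon length in kb), with 1 point per library and no error bar, since each group is a single library. Htr1a lies highest at a mean of 8.15, the points of Htr2c spread most, and Htr1b lies lowest at 0.68.

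Htr2c encodes a Gq-coupled receptor whose messenger RNA is edited by the enzymes of the Adar family, which turn adenosines of a short stretch into inosines and so change the second intracellular loop of the protein. The gene lies at chrX:146962513-147197277 on the plus strand (GRCm38). The stretch lies in exon 5 of 6 of transcript ENSMUST00000036303.8, at chrX:147169671-147169715, and covers coding bases 454 to 498 of 1377. It is shown because the values below count reads of the gene regardless of editing, with the 5 adenosines known to be edited in capitals.
Htr2c edited stretch: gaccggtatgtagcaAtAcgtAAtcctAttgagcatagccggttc
Of the 4 coding transcripts in the annotation, 2 hold the whole stretch, and the deposited values give 1 level per gene, so neither editing nor the choice of exons was measured here. The RefSeq promoter sequence of Htr2c, from 250 bases before the start site to 50 after it (chrX:146962263-146962562, plus strand, GRCm38.p6), is shown beside that of Htr1a (chr13:105443443-105443742, plus strand), as these are the receptor genes whose level varied most.
Htr2c promoter: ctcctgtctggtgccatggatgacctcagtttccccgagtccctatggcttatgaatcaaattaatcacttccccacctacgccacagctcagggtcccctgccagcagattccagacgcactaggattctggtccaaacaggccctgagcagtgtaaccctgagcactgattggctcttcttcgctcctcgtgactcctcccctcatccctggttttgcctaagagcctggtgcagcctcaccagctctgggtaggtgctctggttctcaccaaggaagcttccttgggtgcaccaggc
Htr1a promoter: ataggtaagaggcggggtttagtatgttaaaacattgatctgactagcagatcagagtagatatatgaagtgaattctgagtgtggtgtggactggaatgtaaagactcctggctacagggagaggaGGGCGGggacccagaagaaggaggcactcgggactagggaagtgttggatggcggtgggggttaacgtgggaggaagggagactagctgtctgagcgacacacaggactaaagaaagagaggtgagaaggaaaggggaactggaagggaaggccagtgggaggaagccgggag
The capitals mark GGGCGG, the core of a GC box, which begins at position -123 of Htr1a. This motif was searched on both strands of 32851 RefSeq promoters of the same length, and 35.7% held it. The same search for TATAAA, the core of a TATA box, found it in 13.6% of them. The core of the cyclic AMP response element, TGACG, was in 20.8%. The searched motifs do not overlap each other in these sequences, and none was in the Htr2c sequence. Its GC content was 56.3% with 5 CpG sites, and that of Htr1a was 52.3% with 7, near the medians of all promoters (52.7% and 7). RefSeq promoters were matched for 7 of the 10 genes.

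The Htr2c level was 8.65 in LD, 9.12 in CE, 8.51 in RUN, with 8.34 in H-RUN and 8.77 in L-RUN. CE was the highest library and H-RUN the lowest, and L-RUN was above LD while RUN was below it. CE was higher than LD by 0.47, or 1.39-fold, which is 9.9 times the technical SD at this level (0.047). Among the 13550 expressed genes it was the difference of rank 12 by size. H-RUN differed from LD by -0.32 (0.803-fold), 6.7 times the technical SD, at rank 95. RUN differed from LD by -0.14 and L-RUN by 0.12, both under 0.3.

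In the direct comparison of the runners, Htr2c was lower in H-RUN than in L-RUN, at a difference of -0.43 (0.741-fold, rank 62). The RUN pool, which held both, lay between them at 8.51, and the value computed for an equal mixture was 8.57. This repeat measurement thus missed the mixture by -0.06. CE was higher than RUN by 0.62 (1.53-fold), at rank 5 of the expressed genes. The range over the 5 libraries was 0.79, the rank 13 among expressed genes. Removing the trend of the differences with exon length gave 0.51 for CE, -0.09 for RUN, -0.28 for H-RUN, 0.19 for L-RUN and -0.47 for H-RUN minus L-RUN, so the H-RUN difference from LD then fell short of 0.3. The trend was read at the length of all exons of Htr2c (9328 bases), and its longest transcript has 4883 bases. For H-RUN minus LD the trend was -0.037 at the length of Htr2c and -0.0049 at that of Htr4 (4908 bases). These shifts thus depend on the annotated length, and removal at the shorter length was not run.

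**Figure D2:**
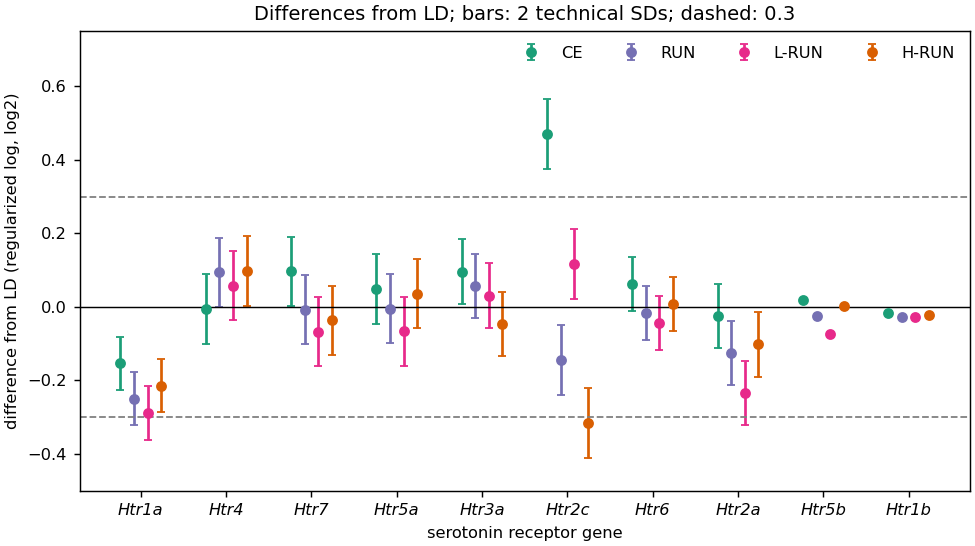
Difference from LD in regularized log value (log2) for each of the 10 genes in CE, RUN, L-RUN and H-RUN. Bars are 2 technical SDs of a difference, which do not cover differences between mice and were not computed for Htr5b and Htr1b, and dashed lines mark 0.3 in either direction. The Htr2c points for CE (0.47) and H-RUN (-0.32) lie beyond the lines and all Htr1a points lie below 0.

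Among the expressed genes, the 5 whose differences from LD were closest to those of Htr2c over the 4 other libraries were Col5a1, Erdr1, Gpr101, Timp2 and Plagl1, at Euclidean distances of 0.17 to 0.22. Pearson's r with Htr2c over the 5 libraries was 0.976 to 0.989, which describes genes selected for likeness and carries no test. Col5a1, which encodes a chain of fibrillar collagen, differed from LD by 0.44 in CE and -0.24 in H-RUN. Gpr101, which encodes an orphan G protein-coupled receptor, differed by 0.53 in CE and -0.30 in H-RUN. Erdr1 was 0.48 and -0.20 in the same libraries, Timp2, an inhibitor of matrix metalloproteases, was 0.37 and -0.15, and Plagl1, a zinc finger transcription factor, was 0.44 and -0.19. In all 5 genes CE was the highest library and H-RUN the lowest, as it was for Htr2c.

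Genes that mark other cells or places moved with Htr2c in part. Ttr, the most abundant transcript of the choroid plexus, an epithelium where Htr2c is also strongly expressed, was 0.62 above LD in CE, 0.18 in RUN, with 0.14 in H-RUN and 0.13 in L-RUN. The other 3 expressed choroid plexus markers, Kl, Sostdc1 and Prlr, differed by 0.03, -0.04 and -0.0031 in CE, and the other 11 of the 15 listed had means of 0.23 to 4.96, below the minimum. The summed level of the 15 markers (log2) was 9.96 in LD, 10.14 in CE and 9.97 to 9.99 in the 3 running libraries. The range of the running libraries was narrower than that of Htr2c, which differed by 0.43 between H-RUN and L-RUN. The part of these cells in the Htr2c differences was not tested.

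Of 13 leptomeningeal markers 12 were expressed, and their summed level was 11.72 in LD, 11.89 in CE, 11.93 in RUN, with 11.51 in H-RUN and 12.30 in L-RUN. Their sum was lowest in H-RUN, as Htr2c was, and highest in L-RUN, while Htr2c was highest in CE. H-RUN was the lowest library for 9 of the 12 and LD for 3, and L-RUN was the highest for 11 and CE for 1 (Dcn). In L-RUN 9 of the 12 were called higher, against 3.13% of expressed genes called. In H-RUN minus L-RUN 11 were called lower, against 1.54%. In CE 3 were called higher (0.598% of expressed genes called), in RUN 6 higher (1.31%) and in H-RUN 2 lower (0.827%). Dcn differed from LD by 0.37 in CE, -0.11 in RUN, -0.52 in H-RUN and 0.29 in L-RUN. Its libraries stood in the same order as those of Htr2c. The 12 interneuron markers, all expressed, had summed levels of 14.95 to 15.04, with 7 above LD and 5 below in CE (median difference 0.02) and 3 above and 9 below in L-RUN (median -0.06). Sst was the 1 gene called among them, 0.34 above LD in CE and 0.30 in L-RUN, and Reln was the lowest in L-RUN at -0.19. The CA1 pyramidal markers summed to 12.14 in LD, 12.27 in CE, 11.92 in RUN, with 12.03 in H-RUN and 11.77 in L-RUN, and 5 of 5 were called lower in L-RUN, where 3.13% of expressed genes were called. Of these markers Fibcd1 was also called higher in CE (0.31) and lower in RUN (-0.46) and H-RUN (-0.52). Its highest library was CE and its lowest H-RUN, as for Htr2c. In CE 3 of the 5 were above LD and 2 below. In H-RUN minus L-RUN, where Htr2c was lower, 4 were above 0 and Fibcd1 below (-0.06). Wfs1 and Pou3f1 were called higher there, at 0.51 and 0.52. For the CA3 and mossy cell markers the sums were 12.52 to 12.74 and 12.08 to 12.21. For those of the thalamus and habenula they were 9.75 to 9.97, with Gbx2 and Pou4f1 near 0. The CA3 marker Bok was called higher in H-RUN (0.41) and in H-RUN minus L-RUN (0.36). Prkcd, of the thalamus and habenula list, was called lower in CE (-0.40) and in L-RUN (-0.37). The shares of expressed genes called were those given above for the leptomeningeal markers. In pooled tissue, fewer cells of a type and less RNA per cell cannot be told apart, and the part of these cells in any receptor difference was not tested.

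Position along the DG was looked at through 7 genes known to be higher at the ventral pole and 3 known to be higher dorsally, lists that were chosen after the genes most like Htr2c had been seen. All 7 ventral genes were above LD in CE, by 0.08 to 0.48 (median 0.29). Cpne7 and Nnat passed 0.3 among them. In L-RUN, where Htr2c was not called, all 7 were above LD as well (median 0.28), and Nnat, Grp and Resp18 passed 0.3, at 0.48, 0.34 and 0.33. These are 2 genes called in CE and 3 in L-RUN, against 0.598% and 3.13% of expressed genes. In H-RUN 2 were above and 5 below (median -0.02, Trhr lowest at -0.25). All 7 were lower in H-RUN than in L-RUN (median -0.30), the direction in which Htr2c differed there, and 4 were called, against 1.54% of expressed genes. The 3 dorsal genes, Lct, Spata13 and Gsg1l, were below LD in CE, at -0.25, -0.23 and -0.02. In H-RUN minus L-RUN they differed by 0.21, -0.11 and -0.14, so 2 of the 3 were lower there as the ventral genes were, and in L-RUN Gsg1l was 0.18 above LD. Whether the pools differed in their share of ventral tissue was not tested.

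**Figure D3:**
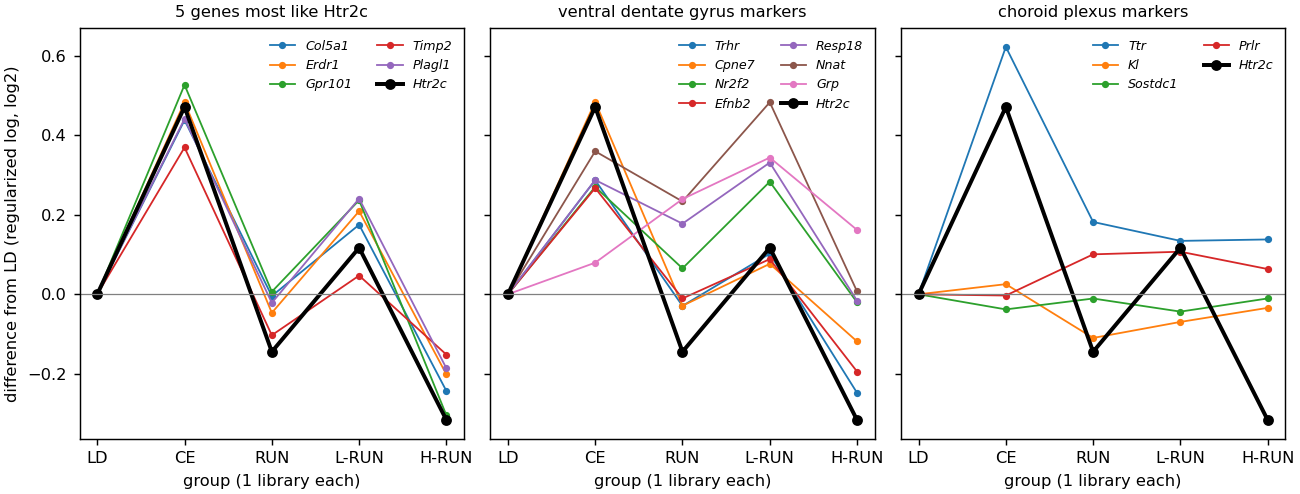
Difference from LD in regularized log value (log2) across the 5 libraries for Htr2c (black) beside the 5 expressed genes most like it (left), 7 ventral DG genes (middle) and the 4 expressed choroid plexus markers (right). Lines join the values of a gene and there are no error bars. The genes on the left peak in CE (0.37 to 0.53) and are lowest in H-RUN, the ventral genes lie above LD in CE and in L-RUN, and of the choroid plexus markers Ttr (0.62) stands apart in CE.

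Htr2c also hosts 5 miRNA genes (Mir764, Mir1912, Mir1264, Mir1298 and Mir448), and all of these were listed at 0 in the 5 libraries. The libraries were of poly(A) RNA, and 4588 of the 23420 symbols were at 0 in every library. These values of 0 thus do not give the level of the mature miRNAs. Of the enzymes that edit the Htr2c transcript, Adar differed from LD by -0.03 to -0.01 and Adarb1 by -0.13 to -0.02.

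Htr2a (chr14:74640840-74709494, plus strand) encodes another Gq-coupled receptor. Its level was 6.62 in LD, 6.60 in CE, 6.50 in RUN, with 6.52 in H-RUN and 6.39 in L-RUN. LD was the highest library and L-RUN the lowest, at a difference of -0.24 (technical SD 0.044). It was 0.13 higher in H-RUN than in L-RUN, where Htr2c was lower, and it differed from LD by -0.03 in CE, where Htr2c was higher.

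Htr1a (chr13:105443639-105448122, plus strand) encodes the Gi/o-coupled receptor that dampens firing, as an autoreceptor in the raphe and as a receptor on hippocampal neurons. Its level was 10.49 in LD, 10.34 in CE, 10.24 in RUN, with 10.28 in H-RUN and 10.21 in L-RUN. LD was the highest of the 5 libraries, and the 3 running libraries lay within 0.07 of each other. The differences from LD were -0.15 in CE, -0.25 in RUN, with -0.21 in H-RUN and -0.29 in L-RUN, which are 4.2 to 8.0 times the technical SD (0.036). The same LD library stands in all 4 differences, so they are not separate observations. Removing the trend with exon length left them between -0.16 and -0.28. By size among 13550 expressed genes they had rank 1314 in CE, 320 in RUN, 358 in H-RUN and 454 in L-RUN.

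Htr5a (chr5:27842149-27855088, plus strand), another Gi/o-coupled receptor gene, had levels of 8.36 in LD, 8.41 in CE, 8.36 in RUN, with 8.40 in H-RUN and 8.30 in L-RUN, a range of 0.12. Its relative Htr5b (chr1:121509842-121528465, minus strand) was at 4.80, 4.82, 4.78, 4.81 and 4.73 in the same order, below the minimum for an expressed gene. Htr1b (chr9:81628291-81633828, minus strand), whose product is best known as a presynaptic autoreceptor, was between 2.91 and 2.94. Its exons overlap D430036J16Rik on the other strand, and whether the counting used strand is not given in the sources used here. At levels this low the shrinkage leaves little room for a difference, so the small ranges of Htr5b (0.09) and Htr1b (0.03) do not show equal expression.

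Among the Gs-coupled receptor genes, Htr4 (chr18:62324204-62496577, plus strand) was at 8.95 in LD, 8.95 in CE, 9.04 in RUN, with 9.05 in H-RUN and 9.01 in L-RUN. The 3 running libraries were above LD by 0.06 to 0.10, and CE was level with LD to 2 decimals. Htr7 (chr19:35958734-36057507, minus strand) was at 7.83 in LD, 7.93 in CE, 7.83 in RUN, with 7.80 in H-RUN and 7.77 in L-RUN. CE was its highest library, 0.10 above LD. Htr6 (chr4:139061108-139075570, minus strand) was at 6.01, 6.08, 5.998, 6.02 and 5.97 in the same order, with CE highest and L-RUN lowest. The ranges over the libraries were 0.10 for Htr4, 0.17 for Htr7 and 0.11 for Htr6.

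Htr3a (chr9:48899213-48911099, minus strand), the channel subunit, is known in the hippocampus from a class of interneurons. Its level was 6.97 in LD, 7.06 in CE, 7.02 in RUN, with 6.92 in H-RUN and 6.997 in L-RUN. RUN lay above both L-RUN and H-RUN, of which it is the mixture, and exceeded the value computed for that mixture by 0.06, an error of the measurement of about the size of these differences. The same held for Htr7, with 0.04. Its largest difference from LD was 0.10 in CE.

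The 45 other genes of the serotonin pathway were read from lists of receptors, of serotonin handling, of receptor partners and editing enzymes, and of the 3 G protein routes, and 37 were expressed. The other 4 receptor genes, Htr1d, Htr1f, Htr2b and Htr3b, had means of -0.31 to 3.55 and were not expressed. Of 10 genes for the synthesis, uptake, storage and breakdown of serotonin 6 were expressed and 0 were called in any comparison. The highest difference from LD was that of Slc29a4, a monoamine transporter of the plasma membrane, with 0.19 in L-RUN, and the lowest was that of Slc18a2, the vesicular monoamine transporter, with -0.07 in CE. Tph2, the rate-limiting enzyme of neuronal serotonin synthesis, had a mean of 5.02, and Slc6a4, the serotonin transporter, one of 1.14. Both genes are transcribed in the cell bodies of the raphe, which lie outside the DG.

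Of 6 receptor partners and editing enzymes, all expressed, 0 were called in any comparison. S100a10, which encodes an adaptor that brings receptors to the cell surface, was highest with 0.19 in CE, and Ric3, which encodes a chaperone of the serotonin-gated channel, lowest with -0.22 in L-RUN.

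Along the Gi/o route, 2 of 8 genes were called lower in L-RUN, Kcnj3 at -0.45 and Kcnj6 at -0.49, and 0 in CE, RUN and H-RUN. L-RUN was the library with the most calls against LD, at 3.13% of expressed genes. They encode subunits of the inward rectifier potassium channel that the Htr1a product opens. Both were higher in H-RUN than in L-RUN, by 0.37 and 0.39. The highest difference from LD in this list was 0.19, that of Gnai2 in CE. Kcnj9, another subunit of the same channel family, differed from LD by -0.01 to 0.16. Htr1a was lowest in L-RUN too, but by 0.07 below H-RUN.

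On the Gq route, Itpr1, the inositol trisphosphate receptor that releases calcium from the endoplasmic reticulum, was called lower in each library against LD, at -0.37 in CE, -0.48 in RUN, with -0.40 in H-RUN and -0.60 in L-RUN. Its level was 12.79 in LD, 12.42 in CE, 12.31 in RUN, with 12.39 in H-RUN and 12.18 in L-RUN, so the direction was not that of Htr2c in CE or L-RUN. The other 6 genes of the route were not called, and Gna11 was highest with 0.15 in CE.

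On the Gs route, 1 of 10 genes was called in CE (Adcy1), where 0.598% of expressed genes were called, and 2 in L-RUN (Adcy1 and Adcy9), where 3.13% were. Both encode adenylyl cyclases. Adcy1 was lower in CE (-0.30) and in L-RUN (-0.37) and differed by -0.20 in RUN and -0.07 in H-RUN. Adcy9 was lower in L-RUN (-0.45) and differed from LD by -0.17 to -0.0028 in the others, and in H-RUN it was 0.44 higher than in L-RUN. Gnas, the stimulatory G protein subunit, was highest with 0.23 in CE.

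Of the 37 expressed genes, 2 were called in CE, 1 in RUN, with 1 in H-RUN and 5 in L-RUN, all lower than LD, and 4 were higher in H-RUN than in L-RUN. The shares of all expressed genes called in these comparisons were 0.598% for CE, 1.31% for RUN, 0.827% for H-RUN, 3.13% for L-RUN and 1.54% for H-RUN minus L-RUN. In L-RUN the differences of all expressed genes followed exon length, with a trend of 0.06 at 1907 bases and -0.08 at 10155 bases, lengths near the short and the long end among expressed genes, and in CE the trend was 0.03 and -0.04. Removing this trend left 0 of the 2 calls in CE, 4 of 5 in L-RUN, 1 of 1 in RUN, 1 of 1 in H-RUN and 3 of 4 in H-RUN minus L-RUN. The calls lost were those of Itpr1 in CE and of Adcy1 in CE, L-RUN and H-RUN minus L-RUN.

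**Figure D4:**
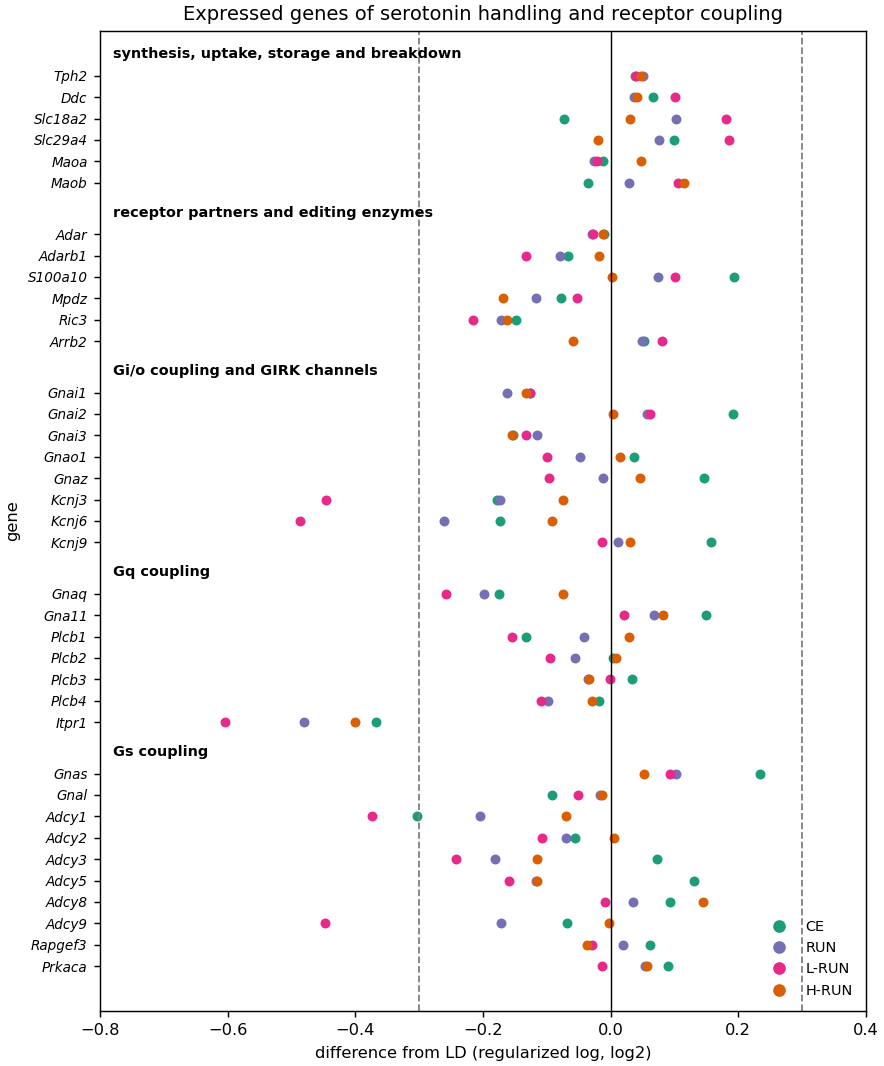
Difference from LD in regularized log value (log2) of the 37 expressed pathway genes in CE, RUN, L-RUN and H-RUN, grouped by list, with dashed lines at 0.3 in either direction and no error bars. Itpr1 lies beyond the lower line in all 4 libraries, and Kcnj3, Kcnj6, Adcy1 and Adcy9 lie beyond it in L-RUN.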

How the data were processed

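RNA-Seq of poly(A) RNA from the DG was made on 5 pools, 1 library per group. Per the labels and the methods of the study, the authors used CASAVA 1.8.2 and TopHat2 2.0.10 to map reads to mm10, used HTSeq for counts on RefSeq genes, and normalized all libraries at once with DESeq2 1.10.1. The deposited values are regularized log values (log2), 1 per gene and library. Counts were not used here, so depth is unknown and precision from counting cannot be given.

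Differences between libraries were called at 0.3 or more, after the methods of the study, among 13550 genes with a mean of at least 5. With 1 library per group no test was run. The technical SD rests on the gap between RUN and the log2 value of the linear mean of L-RUN and H-RUN (median absolute deviation, per decile of expression). The gap was given 1.5 times the variance of 1 library, and a difference 2 times. Exon lengths and positions came from GENCODE M21 (GRCm38), which gave a length for 94.0% of expressed genes, and promoters came from RefSeq. The trend with length was a lowess curve (fraction 0.3). The text names all 10 members, in 6 pathway lists every gene called and the highest and lowest, the 5 genes nearest to each called member by Euclidean distance, and genes of 8 marker lists. Adar, Adarb1, Kcnj9, Tph2 and Slc6a4 were named after their values were seen. The members and lists were chosen with earlier results of these data known, and the lists of ventral and dorsal genes, the 5 miRNA genes and the comparison of CE with RUN were added after the data were seen. Alternatives were other thresholds, other minimum means, centring, quantile normalization, a baseline averaged from LD and CE, removal of the length trend, other forms of the technical SD and other transcript lengths. The scripts were tested on simulated data. Python 3.11.15, numpy 2.4.6, pandas 2.3.3, statsmodels 0.14.6 and matplotlib 3.10.9 were used.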

Additional observations from a re-analysis of the deposited data

Results flagged for a closer look

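Htr2c differed from LD in opposite directions in CE (0.47 higher) and in H-RUN (0.32 lower), so that these libraries were 0.79 apart. The difference between the groups was not tested, since each is 1 library, and both share the LD library, which drops out of the 0.79.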

How the results depend on the processing

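Of the counts and summary values recomputed under other settings, 69 stayed within 1.5 times their main value, and 16 moved. No difference that was called changed its direction. For the 10 receptor genes, a threshold of 0.4 gave 0 calls in H-RUN, and 0.2 gave 1 in RUN, with 2 in H-RUN and 2 in L-RUN. With a baseline averaged from LD and CE 1 receptor gene was called in RUN (Htr2c, -0.38), Htr2c was -0.12 in L-RUN, where it was 0.12 against LD, and -0.55 in H-RUN, and Htr1a was -0.17, -0.21 and -0.14 in RUN, L-RUN and H-RUN. Removing the trend with exon length gave 0 calls in H-RUN, and moved Htr2c to -0.09 in RUN and 0.19 in L-RUN. For Htr2c these values depend on the use of the length of all its exons. For the pathway genes, 0.4 gave 0 calls in CE and 1 in H-RUN minus L-RUN, 0.2 gave 3 in RUN, 8 in L-RUN and 2 in CE minus RUN, quantile normalization gave 1 in CE, the averaged baseline gave 0 in RUN and 0 in H-RUN, and removal of the length trend gave 0 in CE. With the longest transcript 6 of the 10 receptor genes kept their place in the order per length. These moves follow from the threshold or baseline itself, and otherwise the cause was not tested. Leaving out a replicate was not possible with 1 library per group. No paired analysis was possible because each group has 1 library. Unknown depth and the shrinkage of low genes limit all differences of Htr1b and Htr5b.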
